A study of Mus musculus with 3 samples.

Results

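CTCF and the cohesin machinery were followed as 10 genes in RNA-Seq libraries of mouse ES cells depleted of NUP153, a nucleoporin of the nuclear basket. The genes were chosen by name. The study examined CTCF, SMC1A, SMC3 and RAD21 together with NUP153, and the other 6 genes encode further cohesin subunits and regulators. The 10 are Ctcf, the cohesin core subunits Smc1a, Smc3 and Rad21, the alternative subunits Stag1 and Stag2, the loading factors Nipbl and Mau2, and the cohesin-associated regulators Pds5a and Pds5b. All 10 were among the 24421 genes counted, and all passed the minimum mean of 10 reads that was required for a comparison. The control culture received a scramble shRNA and carries the genotype label Wild type, and the KD-1 and KD-2 cultures received NUP153-specific shRNA 1 and shRNA 2 by lentivirus. Each condition had 1 library. All 3 cultures were undifferentiated cells of the female EL 16.7 line (strain label F2, 129S1/CastEiJx 129S1) that were kept with LIF on γ-irradiated fibroblast feeders from Tg(DR4)1Jae/J mice, and all were selected with puromycin at 2 μg/ml for 2 days. The sources used here name no clone and no step that removes the feeders before total RNA was isolated.

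Cohesin is a ring-shaped complex. SMC1A and SMC3 form its long arms, RAD21 closes the ring, and either STAG1 or STAG2 binds to RAD21. NIPBL, together with MAU2, loads the complex onto DNA and supports its movement along chromatin, while PDS5A and PDS5B act with WAPL in the release of the ring and with the acetyltransferases that stabilize it. CTCF is a zinc finger protein that binds DNA at oriented sites where cohesin tends to stop, and both are found at the borders of topologically associating domains and at chromatin loops. The study examined how NUP153 relates to the binding of CTCF and cohesin. The comparison made here is whether the mRNAs of these proteins differed between the libraries.

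Reads on genes numbered 69839336 to 85258834 per library. Nup153, the targeted gene, was counted with 27870 reads in the control library, with 16451 in KD-1 and with 11126 in KD-2. Both knockdown libraries were lower, KD-1 at a log2 fold change of -0.99 (95% counting interval -1.02 to -0.96) and KD-2 at -1.43 (-1.46 to -1.40) after the libraries were scaled by their upper quartile. Scaled by the pluripotency markers instead, KD-1 was at -1.14 and KD-2 at -1.13. These intervals cover the counting of reads only, and no difference against control has a replicate check. All 12 pluripotency markers examined had reads in every library, as had all 14 fibroblast markers, and no marker of either list was at 0. The summed level of the fibroblast markers was 306 RPKM (reads scaled by exon length and by all reads on genes) in control, against 139 in KD-1 and 628 in KD-2. All 14 were lower than control in KD-1 (median log2 fold change -0.73) and all 14 were higher than control in KD-2 (median 0.80). The summed level of the pluripotency markers was 3373 RPKM in control, against 3863 for KD-1 and 2653 for KD-2, of which Dppa5a alone made up 1665, 2107 and 1249. These 12 markers went both ways, with 9 higher and 3 lower in KD-1 (median 0.15) and 4 higher and 8 lower in KD-2 (median -0.30). With bulk RNA, fewer cells of a type and less RNA per cell cannot be told apart, and this holds for every difference below. The part of the fibroblast and pluripotency markers in the results on the 10 genes was not tested.

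All 10 genes were well expressed. Their reads ranged from 5653 for Pds5b in KD-2 to 38244 for Smc1a in KD-1, and together they took 0.240% of the reads on genes in control, against 0.235% in KD-1 and 0.189% in KD-2. On the RPKM scale, which takes exon length into account, Smc1a was highest in control with 112 RPKM, followed by Smc3 with 77.6 and Ctcf with 76.9. Smc3 and Ctcf lie too close in control to be set apart, since no spread between replicates is known. Stag2 had 42.7 RPKM and Rad21 had 38.7, next to each other in that order. Pds5a had 27.5 RPKM and Stag1 had 27.4, and Mau2 followed with 19.6. Nipbl with 13.3 RPKM and Pds5b with 11.9 were the lowest. Among genes with a known length and a mean of at least 10 reads, Smc1a stood at the 96.2 percentile in control and Pds5b at the 72.2 percentile. Smc1a, Smc3 and Ctcf were the 3 highest of the 10 in each of the 3 libraries, in that order, and Mau2, Nipbl and Pds5b were the 3 lowest, also in that order.

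**Figure D1:**
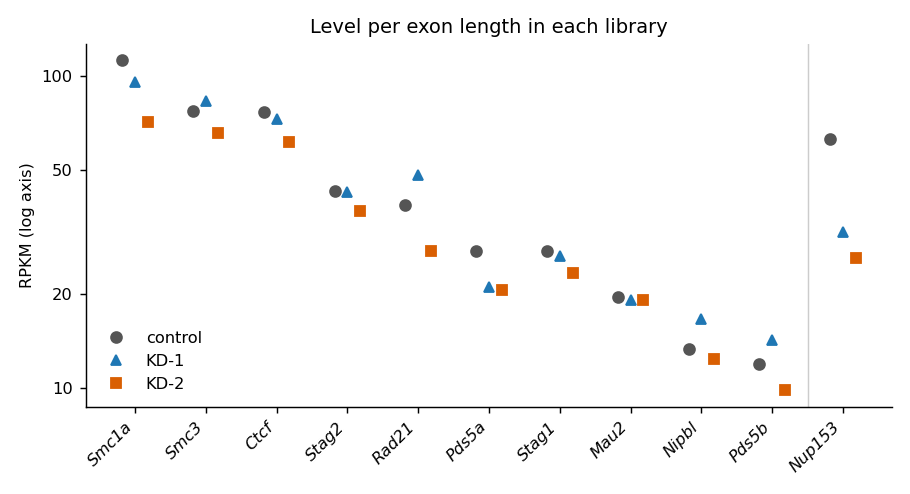
Level of each gene in RPKM (log axis) in the control (circles), KD-1 (triangles) and KD-2 (squares) libraries, 1 library each and without error bars, with the targeted gene Nup153 on the right. Genes are ordered by their level in control, from 112 RPKM for Smc1a to 11.9 for Pds5b, and the KD-2 square lies below the control circle for each of the 10 genes.

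A link between promoter bases and the values of the 10 genes in the libraries was not tested. The bases ahead of the transcription start are shown for the 3 genes with the highest levels. They are 250 bases long, 5′ to 3′ on the strand of the gene, and come from RefSeq (GRCm38.p6), where 7 of the 10 genes had a promoter entry and Mau2 had 2, which makes 8 entries. Capitals mark matches on either strand to GGGCGG, the letters of an Sp1 site, and to CCAAT, those of an NF-Y site, which read CCGCCC and ATTGG where they lie on the opposite strand.
Smc1a, chrX:152016178-152016427, plus strand: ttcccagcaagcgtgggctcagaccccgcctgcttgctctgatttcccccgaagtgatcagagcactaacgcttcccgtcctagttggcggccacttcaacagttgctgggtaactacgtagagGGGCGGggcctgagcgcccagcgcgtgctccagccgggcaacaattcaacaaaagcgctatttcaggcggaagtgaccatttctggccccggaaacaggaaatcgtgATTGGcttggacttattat
Smc3, chr19:53600146-53600395, plus strand: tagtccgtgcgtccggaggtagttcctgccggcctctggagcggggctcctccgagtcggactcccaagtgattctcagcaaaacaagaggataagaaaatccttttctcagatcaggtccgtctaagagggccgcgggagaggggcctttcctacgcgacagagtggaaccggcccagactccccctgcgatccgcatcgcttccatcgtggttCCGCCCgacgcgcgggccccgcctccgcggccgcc
Ctcf, chr8:105636288-105636537, plus strand: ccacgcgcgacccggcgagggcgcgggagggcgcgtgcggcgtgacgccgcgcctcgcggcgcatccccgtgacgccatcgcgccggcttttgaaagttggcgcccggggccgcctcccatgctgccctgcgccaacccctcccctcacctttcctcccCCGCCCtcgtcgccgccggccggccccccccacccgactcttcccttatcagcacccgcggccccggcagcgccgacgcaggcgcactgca
In windows that also hold the first 50 bases of the gene, GGGCGG or its reverse complement was present in 7 of the 8 entries, all but the second of Mau2, and in 35.7% of the 32851 promoters of the table. The 250 bases ahead of the start had a GC content of 54.8 to 80.4% in these 7 entries and of 44% in the second of Mau2. All promoters of the table were counted, without matching for GC content or expression. CCAAT was present in 3 of 8 entries, those of Smc1a, Stag1 and Pds5b, and in 37.4% of all promoters. None of the 8 windows held TATAAA (13.6% of all promoters), CCGGAAG of ETS factors (8.86%), AAGATGG of YY1 (6.34%), the NRF1 palindrome (0.971%) or the core of the CTCF motif (0.0365%). These counts describe letters in a window and say nothing about the binding of a factor.

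Ctcf encodes the DNA-binding partner of cohesin and lies on chromosome 8 at 105636568 to 105682922 (GRCm38, plus strand). Its reads numbered 21045 in the control library, 23476 in KD-1 and 16297 in KD-2, which gives 76.9, 72.8 and 61.7 RPKM. With upper-quartile scaling and in RPKM, the control and KD-1 libraries were close to each other and KD-2 was lowest. Against control, KD-1 was at a log2 fold change of -0.07 (95% counting interval -0.10 to -0.04) and KD-2 at -0.48 (-0.51 to -0.45). Scaled by the pluripotency markers, the order of the knockdown libraries turned, with -0.22 for KD-1 and -0.18 for KD-2. In neither library did Ctcf pass a fold of 1.5, the size used here to count a gene as different, since no test of a single knockdown was run on 1 library per condition.

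Among the core subunits, Smc1a (X:152016428-152062694, plus strand) was the one with the lowest fold change in KD-2. In control 38164 reads were counted on it, in KD-1 38244 and in KD-2 23397, or 112, 95.6 and 71.4 RPKM. Both knockdown libraries were below control, KD-2 more so. KD-1 was at a log2 fold change of -0.23 (-0.25 to -0.21). KD-2 was at -0.81 (-0.84 to -0.79), which is 1.76-fold lower, at the 3.58 percentile of the genes compared. Smc3 (19:53600398-53645833, plus strand), with which SMC1A pairs, had 27234, 34377 and 22213 reads in the same order of libraries, or 77.6, 83.1 and 65.6 RPKM. It was highest in KD-1 and lowest in KD-2. KD-1 was at 0.11 (0.08 to 0.13) on the log2 scale against control (-0.05 with the pluripotency markers) and KD-2 at -0.40 (-0.43 to -0.38). Rad21 (15:51962240-51991747, minus strand), which encodes the kleisin that closes the ring, had 11849, 17360 and 8119 reads, or 38.7, 48.1 and 27.5 RPKM. The knockdown libraries stood on opposite sides of control, KD-1 at a log2 fold change of 0.32 (0.29 to 0.36) and KD-2 at -0.65 (-0.69 to -0.61), the latter 1.57-fold lower.

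STAG1 and STAG2 are alternative subunits, of which a cohesin ring holds either one. Stag1 (9:100597798-100959375, plus strand) had 12984, 14801 and 10667 reads in control, KD-1 and KD-2, or 27.4, 26.5 and 23.3 RPKM. Stag2 (X:42149317-42277185, plus strand) had 20709, 24320 and 17258 reads, or 42.7, 42.6 and 36.9 RPKM. On this scale control and KD-1 were close for both genes and KD-2 was lowest. On the log2 scale against control, Stag1 was at -0.04 (-0.07 to -0.01) in KD-1 and at -0.39 in KD-2, and Stag2 was at 0.00 (-0.02 to 0.03) and -0.37. Scaled by the pluripotency markers, KD-1 was the lower of the knockdown libraries for both genes, with -0.19 against -0.09 for Stag1 and -0.15 against -0.07 for Stag2.

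Nipbl and Mau2 encode the loader. Nipbl (15:8290617-8444463, minus strand) had 9079, 13334 and 8127 reads in the 3 libraries, or 13.3, 16.6 and 12.3 RPKM. It was highest in KD-1, at a log2 fold change of 0.33 (0.29 to 0.36), and somewhat lower than control in KD-2, at -0.27 (-0.31 to -0.22). Mau2 (8:70016123-70042734, minus strand) had 7631, 8758 and 7185 reads, or 19.6, 19.1 and 19.1 RPKM. It differed least of the 10 genes between KD-1 and KD-2 under upper-quartile scaling, with log2 fold changes against control of -0.03 (-0.07 to 0.01) and -0.19 (-0.24 to -0.15). Scaled by the pluripotency markers, Nipbl and Mau2 were the 2 genes that were not lower than control in KD-2, at 0.03 and 0.10.

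The PDS5 genes differed from each other in KD-1. Pds5a (5:65605721-65698273, minus strand) had 17753, 16002 and 12823 reads in control, KD-1 and KD-2, or 27.5, 21.01 and 20.6 RPKM, so that both knockdown libraries were below control. KD-1 was at a log2 fold change of -0.38 (-0.41 to -0.35), the lowest of the 10 genes there, and KD-2 at -0.58 (-0.61 to -0.54), while scaled by the pluripotency markers KD-1 was lowest (-0.53 against -0.28). At 1.49-fold lower, Pds5a in KD-2 was just short of a fold of 1.5. Pds5b (5:150673739-150810690, plus strand) had 7104, 10019 and 5653 reads, or 11.9, 14.2 and 9.81 RPKM. It was highest in KD-1 and lowest in KD-2, with log2 fold changes of 0.27 (0.22 to 0.31) and -0.44.

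**Figure D2:**
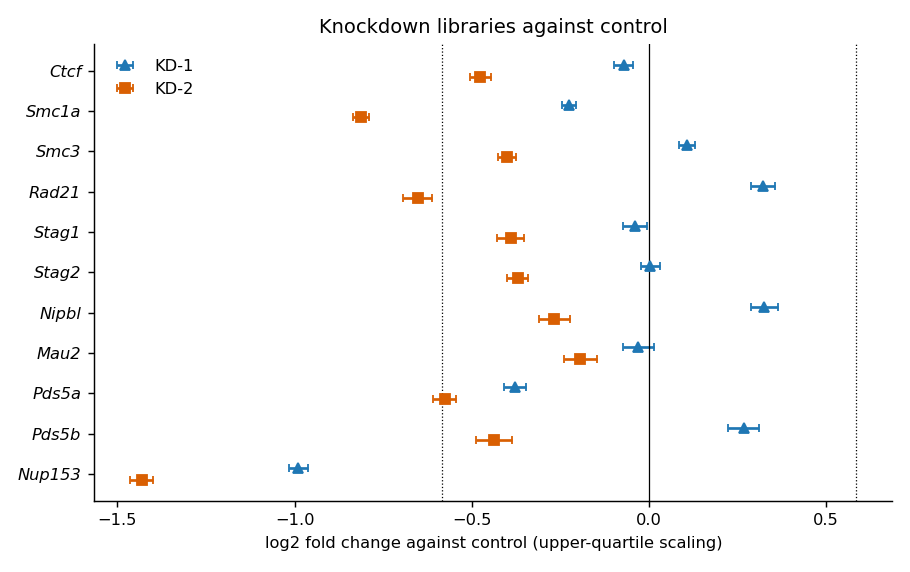
Log2 fold change of each gene against control in KD-1 (triangles) and KD-2 (squares) after upper-quartile scaling, with bars for the 95% counting interval and dotted lines at a fold of 1.5 either way. In KD-1 the 10 genes lie between -0.38 for Pds5a and 0.33 for Nipbl, and in KD-2 they lie between -0.81 for Smc1a and -0.19 for Mau2, all below 0 (2 of 10, Nipbl and Mau2, are above 0 in KD-2 if the libraries are scaled by the pluripotency markers).

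As a group, the 10 genes did not move one way in KD-1. There 5 were higher and 5 lower than control (6 lower with TMM, DESeq2's size factors or library totals, and 7 with the pluripotency markers), the median log2 fold change was -0.01 beside 0.02 for all genes, and 0 of 10 passed a fold of 1.5, beside 14.2% of the 16670 genes compared (8.63% higher and 5.62% lower) and 331 of the 7881 genes whose mean reached 1000 reads, a depth that all 10 have. In KD-2 all 10 were lower with the upper quartile, TMM, DESeq2's size factors and library totals, and 8 of 10 with the pluripotency markers, beside 51.7% of all genes and 64.4% of those whose mean reached 1000 reads with the upper quartile. Their median log2 fold change was -0.42 beside -0.02 for all genes and -0.16 for the genes whose mean reached 1000 reads. Smc1a and Rad21 were the 2 of 10 that passed a fold of 1.5 in KD-2, both lower, beside 27.3% of all genes either way (17.1% higher and 10.2% lower) and 17.4% of those whose mean reached 1000 reads, so the count is near the background. Library totals moved the median of all genes in KD-2 from -0.02 to 0.14, the median of the 10 genes to -0.26, and left Smc1a alone past the fold, while with the pluripotency markers 0 of 10 passed it (Smc1a at -0.51 and Rad21 at -0.35). Both fold changes use the 1 control library, so they are not independent of each other. With the upper quartile, 5 of 10 genes (Ctcf, Smc1a, Stag1, Mau2 and Pds5a) were lower than control in both knockdown libraries, beside 27% of all genes. The other 5 were above control in KD-1 and below it in KD-2, beside 24.7% of all genes, and of these Stag2 was at 0.00 in KD-1. With TMM, DESeq2's size factors or library totals, Stag2 too was lower in both. With the pluripotency markers Smc3 and Stag2 were lower in both and Mau2 was not.

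KD-1 and KD-2 were then compared directly, without the control library. Each of the 10 genes was higher in KD-1 than in KD-2, beside 58.9% of all genes and 66.0% of those whose mean reached 1000 reads, with a median log2 difference of 0.46 beside 0.12 and 0.18 for these (9 of 10 with library totals, where Mau2 was at 0.00, and 5 of 10 with the pluripotency markers, with medians of 0.29 and 0.0050). Of all 16670 genes, 7792 were higher in KD-1 with library totals (median -0.04) and 3786 with the pluripotency markers (median -0.33). Past a fold of 1.5 were 4 of 10, all higher in KD-1, beside 30.1% of all genes either way and 13.9% higher (20.2% either way where the mean reached 1000 reads). They were Rad21 with a log2 difference of 0.97 (1.97-fold), Pds5b with 0.70 (1.63-fold), Nipbl with 0.59 (1.51-fold) and Smc1a with 0.59, which is just past the fold. With TMM or DESeq2's size factors Rad21 and Pds5b alone were past the fold, and with library totals only Rad21. With the pluripotency markers 0 of 10 passed, with Rad21 at 0.52. Of the others, Smc3 differed by 0.51, Ctcf by 0.40, Stag2 by 0.37, Stag1 by 0.35, Pds5a by 0.20 and Mau2 by 0.16. Over the 45 pairs of genes, the widest difference between 2 log2 fold changes was 0.70 in KD-1 (Nipbl and Pds5a), 0.62 in KD-2 (Mau2 and Smc1a) and 0.81 between the knockdown libraries (Rad21 and Mau2).

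Ratios of the reads of 2 genes within a library do not depend on how the libraries are scaled. The Smc1a to Smc3 ratio was 1.40 in the control library, against 1.11 in KD-1 and 1.05 in KD-2, so it was lower in both knockdown libraries, by a log2 fold of -0.33 (-0.36 to -0.30) and -0.41 (-0.45 to -0.38). Rad21 to Smc3 stood at 0.435, 0.505 and 0.366, which is higher in one knockdown (0.21, 0.17 to 0.26) and lower in the other (-0.25, -0.30 to -0.20). The Pds5a to Pds5b ratio was 2.50, 1.597 and 2.27 in control, KD-1 and KD-2, and its log2 fold was -0.65 (-0.70 to -0.59) for KD-1 and -0.14 (-0.20 to -0.08) for KD-2. For the loader, Nipbl to Mau2 was 1.19, 1.52 and 1.13, which is a log2 fold of 0.36 (0.30 to 0.41) for KD-1 and -0.07 (-0.14 to -0.01) for KD-2. Stag1 to Stag2 was nearly even across libraries at 0.627, 0.609 and 0.618, and its log2 folds of -0.04 (-0.09 to 0.00) and -0.02 (-0.07 to 0.03) had counting intervals that reached 0. Ctcf to Smc3 was 0.773, 0.683 and 0.734, with log2 folds of -0.18 (-0.21 to -0.14) and -0.07 (-0.11 to -0.04). Of the 6 ratios, 3 were lower than control in both knockdown libraries with intervals that did not reach 0: Smc1a to Smc3, Pds5a to Pds5b and Ctcf to Smc3. The ratios are not adjusted for GC content, in which Nipbl and Mau2 differ. Relative to genes of like GC content, Nipbl was at -0.01 and Mau2 at -0.26 in KD-2 against control. Nipbl was then no longer the lower of these 2 genes in KD-2. The ratios of Smc1a, Rad21 and Ctcf to Smc3 kept their direction on that basis.

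**Figure D3:**
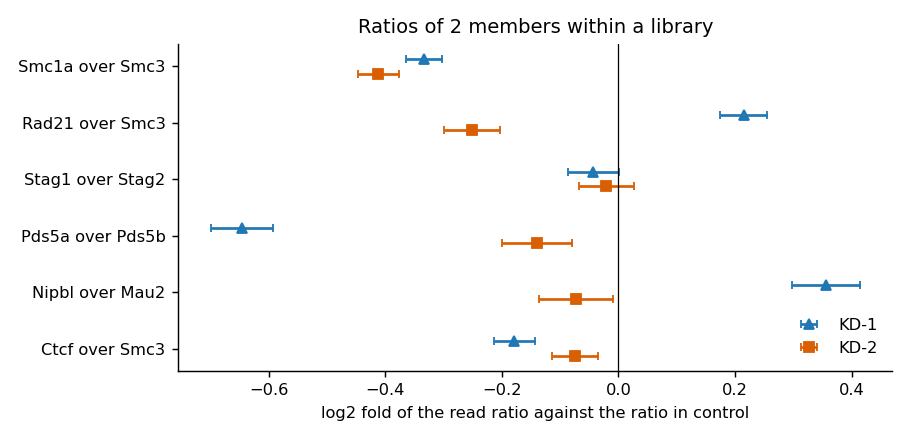
Log2 fold of 6 within-library read ratios against the ratio in control, for KD-1 (triangles) and KD-2 (squares), with bars for the 95% counting interval. Smc1a over Smc3 is below 0 in both libraries (-0.33 and -0.41), Pds5a over Pds5b is lowest in KD-1 (-0.65), and Stag1 over Stag2 lies next to 0 in both.

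The tests run here treat KD-1 and KD-2 as 2 samples of the knockdown and set them against the 1 control library, with 1 residual degree of freedom. By edgeR's quasi-likelihood test, 0 of the 10 genes were called at an adjusted p under 0.05, beside 2 of 21164 genes (0.00945%), and none of the 10 had an unadjusted p under 0.05, beside 264 of all genes. DESeq2's Wald test also called 0 of the 10 and 2 of all genes. The unadjusted p of the 10 genes ran from 0.297 for Pds5a to 0.924 in the quasi-likelihood test, with fitted log2 fold changes from -0.49 for Smc1a to 0.06 for Nipbl. Nup153 itself, at a fitted log2 fold change of -1.19 and lower in both knockdown libraries, had an unadjusted p of 0.00855 and an adjusted p of 1.00 in that edgeR test. The test thus does not call the targeted gene, and the lack of a call is no evidence that the 10 genes were alike in knockdown and control.

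Other genes of the pathway were given the same comparison. Of 15 further cohesin regulators, 9 were higher and 6 lower in KD-1, at a median log2 fold change of 0.00 and with 0 past a fold of 1.5 (7 higher and 8 lower with TMM, DESeq2's size factors or library totals). In KD-2 all 15 were lower, at a median of -0.41 (14 of 15 and -0.25 with library totals, 10 of 15 and -0.11 with the pluripotency markers). Past the fold were 3 of 15, all lower, beside 10.2% of all genes (2 with TMM, DESeq2's size factors or library totals, and 1 with the pluripotency markers). The 3 were Wdhd1, a replication fork factor, at -0.89, Esco2, the acetyltransferase that acts on SMC3 in S phase, at -0.82, and Sgol1, which protects centromeric cohesin, at -0.62. Wapal, the gene of the release factor WAPL, had 28871, 33290 and 22802 reads in control, KD-1 and KD-2, and its log2 fold changes of -0.02 and -0.45 lay near those of Ctcf. Pttg1, which encodes the inhibitor of separase, had the highest value of the list in KD-1 at 0.52.

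Condensin, the related complex that compacts mitotic chromosomes, had 8 subunit genes, of which 2 were higher and 6 lower in KD-1 (median -0.10) and all 8 lower in KD-2 (median -0.54, and -0.24 with 7 of 8 lower under the pluripotency markers). Past the fold in KD-2 were 4 of 8, all lower, beside 10.2% of all genes (3 with TMM or DESeq2's size factors, 1 with library totals and 0 with the pluripotency markers), and Ncapg2 at -0.77 and Ncapg at -0.67 were the most so. The SMC5/6 complex, which acts in DNA repair, had 4 of 8 genes higher in KD-1 (median -0.03) and all 8 lower in KD-2 (median -0.38, with 6 of 8 lower and -0.22 under library totals, and 5 of 8 and -0.078 under the pluripotency markers). There 2 of 8 passed the fold, Nsmce4a at -0.67 and Ankrd32 at -0.66, and 0 with library totals or the pluripotency markers. Among 16 other architectural and mediator factors, 10 were higher in KD-1 (median 0.10) and 15 lower in KD-2 (median -0.24, with 13 lower under TMM or DESeq2's size factors, 11 under library totals and 5 under the pluripotency markers, where the median was 0.054). Past the fold in KD-2 were 2 of 16, both lower, Adnp at -0.89, with a mean under 100 reads, and topoisomerase Top2a at -0.76. Parp1 was at -0.53. Under the pluripotency markers the numbers lower in KD-1 were 10 of 15 cohesin regulators, 8 of 8 condensin genes, 6 of 8 SMC5/6 genes and 12 of 16 other factors. Of all 16670 genes, 11179 were lower in KD-1 with this scaling and 4773 in KD-2, where their median was 0.28. Of the germ line paralogs, Smc1b had 5998, 6949 and 3853 reads in control, KD-1 and KD-2, and Stag3 had 2116, 3520 and 2009. Rec8 had 78, 69 and 48 reads and Ctcfl had 48, 94 and 65, while Rad21l, at 4, 5 and 4 reads, was below the minimum. Smc1b was thus lower in KD-2 (log2 fold change -0.75) and next to control in KD-1 (-0.02), as a level of 20.5 RPKM in control against 13.6 in KD-2. For the markers of dividing cells the median was 0.04 in KD-1. In KD-2 it was -0.56, with 9 of 10 lower (-0.26 and 7 of 10 under the pluripotency markers), beside the lower values of the 10 genes, and their part in these was not tested.

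**Figure D4:**
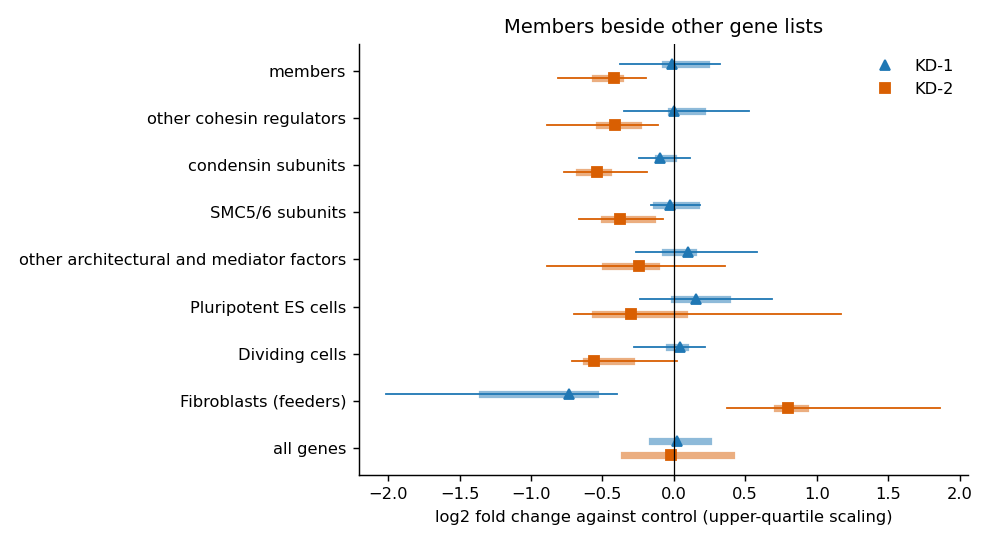
Median log2 fold change against control (points), interquartile range (thick bars) and full range (thin lines) of each gene list in KD-1 (triangles) and KD-2 (squares), with the median and interquartile range alone for all 16670 genes. The 10 genes (members) have a median of -0.01 in KD-1 and one of -0.42 in KD-2 with upper-quartile scaling, and the fibroblast markers have medians of -0.73 and 0.80. Scaled by the pluripotency markers, the 10 genes have a median of -0.12 in KD-2 and all genes one of 0.28.

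Base composition and chromosome were examined because the 10 genes were uneven in GC content and 2 of them are X-linked. By the GC content of their longest transcript, 6 of 10 fell in the lowest quintile of all genes (29.1 to 43.8%: Smc3, Stag1, Stag2, Nipbl, Pds5a and Pds5b) and 3 in the next (Ctcf, Smc1a and Rad21), with Mau2 in the fourth. In KD-2 the median log2 fold change of all genes was -0.26 in the lowest quintile, -0.16 in the next, -0.06, 0.07 and 0.32 in the highest, while in KD-1 it ran from -0.03 to 0.09. Taken relative to the genes in the same quintile, all 10 genes were still lower in KD-2, but their median was -0.22 and Smc1a at -0.65 was the 1 gene past the fold, with Nipbl at -0.01. Between KD-1 and KD-2, Rad21 alone was past the fold on that basis, at 0.77, and Pds5a was at -0.10.

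Smc1a and Stag2 are X-linked. In KD-2 the 659 X-linked genes had a median log2 fold change of -0.29 and 25.5% of them were past the fold and lower, against -0.01 and 9.51% for the 15851 autosomal genes. In KD-1 the medians were -0.01 and 0.02. Within the X-linked genes, Smc1a was at the 11.1 percentile in KD-2 and at the 23.5 percentile in KD-1, and Stag2 was at the 44.0 and 53.1 percentiles. The part of GC content and of the X chromosome in the values of the 10 genes was not tested.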

How the data were processed

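Gene expression was measured by RNA-Seq on ribosomal RNA-depleted total RNA in 3 libraries. The authors trimmed reads with Trim Galore 0.4.1, mapped them with TopHat2 2.1.1 to mm10 (GRCm38), and deposited the number of reads on each gene as unnormalized counts. The methods name featureCounts and the labels HTSeq, and the strand counted is not given in the sources used here. Summary lines that name no gene held 23.0 to 25.6% of reads and were left out, and 0 spike-in sequences were listed. Of the 24421 genes, 24027 matched GENCODE M21 (651 by an older symbol), which gave exon lengths and GC content. No exon of the 10 genes overlapped another counted gene.

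Counts were scaled by the upper quartile, and log2 fold changes used a pseudocount of 0.5 reads and the genes whose mean reached 10 reads. A fold above 1.5 was counted. Intervals are exact conditional binomial 95% intervals for fold changes and Poisson intervals for ratios, and cover counting error only. Both knockdown libraries were tested against control with edgeR 4.0.16 (quasi-likelihood test, two-sided, Benjamini-Hochberg over 21164 genes with a read) and, as an alternative, the Wald test of DESeq2 1.42.0 in R 4.3.3. The study's own test of single knockdowns takes a fixed dispersion from spike-in sequences, which the counts used here do not list, and was not run. Nothing names separate cultures beyond the 3 libraries. The spread behind the p-values comes from KD-1 and KD-2, which received different shRNAs, and the 1 control library adds none. Alternatives were TMM, DESeq2's size factors, library totals, a pseudocount of 5 reads, minimum means of 0 and 100 reads, log2 folds of 0.32 and 1, and leaving out a knockdown library. Scaling by the pluripotency markers and taking values relative to genes of like GC content were chosen after seeing the data. The 10 genes, the lists and the tests were chosen with earlier results of these data known. The genes named are the 10, Nup153, any cohesin regulator or germ line paralog, and the 2 genes of each other list with the largest fold and a mean of at least 100 reads. Dppa5a and Adnp were named after their values were seen. Procedures were run on simulated data in which both knockdown libraries shared the same changes, unlike KD-1 and KD-2 here. How the edgeR test behaves with knockdown libraries as unlike as these was not tested. Python 3.11.15, pandas 2.3.3, numpy 2.4.6, scipy 1.17.1 and matplotlib 3.10.9 were used.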

Additional observations from a re-analysis of the deposited data

Results flagged for a closer look

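For 4 of the 10 genes the knockdown libraries stood on opposite sides of control, each with counting intervals that did not reach 0. In each of them KD-1 was above control and KD-2 below it. Without regard to intervals, 24.7% of all genes and 5 of the 10 had that order with the upper quartile. The log2 difference of KD-1 minus KD-2 was 0.51 for Smc3, 0.97 for Rad21, 0.59 for Nipbl and 0.70 for Pds5b. With 1 library per shRNA this difference was not tested. With the libraries scaled by the pluripotency markers, Smc3 was lower than control in both (-0.05 and -0.10) and Nipbl higher in both (0.17 and 0.03), while Rad21 (0.17 and -0.35) and Pds5b (0.11 and -0.14) kept opposite signs.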

How the results depend on the processing

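The number of the 10 genes past the fold depends on scaling and on the fold chosen. For KD-2 against control, 2 genes with the upper quartile became 1 with library totals, 1 relative to genes of like GC content, 0 with the pluripotency markers, 8 at a log2 fold of 0.32 and 0 at a log2 fold of 1, and the median of -0.42 became -0.26, -0.22 and -0.12 under the first 3 of these. For KD-1 minus KD-2, 4 genes became 2 with TMM, 2 with DESeq2's size factors, 1 with library totals, 1 relative to like GC content, 0 with the pluripotency markers, 8 at a log2 fold of 0.32 and 0 at a log2 fold of 1. The median there of 0.46 became 0.35 with DESeq2's size factors, 0.29 with library totals, 0.20 relative to like GC content and 0.0050 with the pluripotency markers, and 0 lower genes became 1, 1 and 5 under the last 3. For KD-1 against control, 0 genes past the fold became 3 at a log2 fold of 0.32, and the median of -0.01 became -0.17 with the pluripotency markers. Scaling by these markers applies 1 factor per library, so it moves all genes alike. The median of all genes became -0.13 in KD-1, 0.28 in KD-2 and -0.33 for KD-1 minus KD-2. What sets the libraries apart was not tested. In the test of both knockdown libraries, 2 genes called became 4 with TMM and 4 with a minimum mean of 10 reads, and none of the 10 genes was among those called under any setting run. The median of the 10 genes over both libraries, -0.15, ran from -0.42 without KD-1 to -0.013 without KD-2, as values with no test. A pseudocount of 5 reads, no minimum and a minimum mean of 100 reads left the counts of the 10 genes past the fold in the 3 single comparisons as they were. No paired analysis was possible because each group has 1 library. Each of the 10 genes had 5653 or more reads in every library, and the spread between replicates is unknown.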
